A study of Mus musculus with 2 samples.

Results

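Integrins are paired receptors, each made of 1 alpha and 1 beta chain, that hold cells to the extracellular matrix or to other cells. The ligand is set by the pair: some bind the RGD motif of fibronectin and vitronectin, others collagens, laminins, or counter-receptors on neighbouring cells. Inside the cell, talin and kindlin bind the beta tail and switch the receptor on, vinculin, zyxin and tensins tie it to actin, and the focal adhesion kinase with its scaffolds passes the signal on. The genes described here are the integrin chains (symbols of the form Itga or Itgb followed by a number or by v, l, m, x, e or d) and 13 genes of the focal adhesion core. Of 40 symbols looked up, 37 were found among 16881 transcripts, 24 integrin chains and 13 core genes, while Itgad, Itgae and Itgb2l were not analysed here. A further 4 genes with integrin names (Itgb1bp1, Itgb1bp2, Itgb3bp and Itgbl1) do not encode integrin chains and were left out.

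RNA was sequenced from 2 cultures of immortalised mouse embryonic fibroblasts of the C57BL/6 strain, 1 of genotype p65+/+ (wild-type) and 1 of genotype p65-/- (p65-null). p65, encoded by Rela, is a DNA-binding subunit of NF-kB, and the design asks which genes differ with and without it. The labels name no stimulus, and how many embryos or clones each culture came from was not given in the sources used here. Each genotype had 1 library, so the differences below stand unreplicated and carry no p-values.

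Fragments recovered from the deposited values summed to 20794475.5 for p65+/+ and 15441396.5 for p65-/- cells. Levels are normalised CPM, fragment counts scaled to the size and composition of each library. A ratio is the p65-null level divided by the wild-type one. Its interval (95%, Clopper-Pearson) reflects only the counting of fragments. Rela itself had 1918 fragments in p65+/+ and 198.5 in p65-/- cells, 6.90-fold lower (5.96 to 8.03). The cultures also differed in genes unrelated to adhesion: Xist had 956 and 2 fragments, the Y-linked Kdm5d 0 and 207, and Cdkn2a 1693.5 and 3. Their part in the differences below was not tested. All 10 fibroblast markers were measured, summing to 10245 normalised CPM in p65+/+ and 22091 in p65-/- cells. Col1a1 (3119 and 6742) and Col1a2 (2934 and 7634) made up most of both sums. Of the 10 markers, 7 were higher in p65-/- cells and 3 lower: Thy1 (82.9 and 9.64), Dcn (104 and 64.8) and Pdgfrb (199 and 150).

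Taken as measured were 12134 genes whose mean CPM reached 1, of which 30 were members: all 13 core genes and 17 of the 24 integrin chains. The other 7 chains (Itga4, Itga10, Itgal, Itgam, Itgax, Itgb2 and Itgb4) had 1 to 16 fragments in p65+/+ cells and 1 to 19 in p65-/- cells. Of the measured members, 8 (26.7%) were lower by 2-fold or more in p65-/- cells, where 13.8% of all measured genes were. Higher to the same degree were 3 (10%), against 12.1% of all measured genes. Itga2, Itgb6 and Itgb7 reached 1 CPM in p65+/+ cells alone, so they entered the measured set through the library where they were high. The lower members were Itgb6, Itgb7, Itga6, Itga2, Itga1, Zyx, Lims1 and Fermt2, and the higher ones Itga2b, Tns1 and Itga9. The other 19 members lay within 2-fold. By 4-fold or more, 4 members were lower (Itgb6, Itgb7, Itga6 and Itga2), against 3.53% of all measured genes, and with Itga2b 5 members differed either way, against 7.87%. The whole interval lay past 2-fold for 5 lower members (Itgb6, Itgb7, Itga6, Itga2 and Zyx), against 9.12%, and for 2 higher ones (Itga2b and Tns1), against 7.92%. Such shares depend on depth as well as on the ratio.

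**Figure D1:**
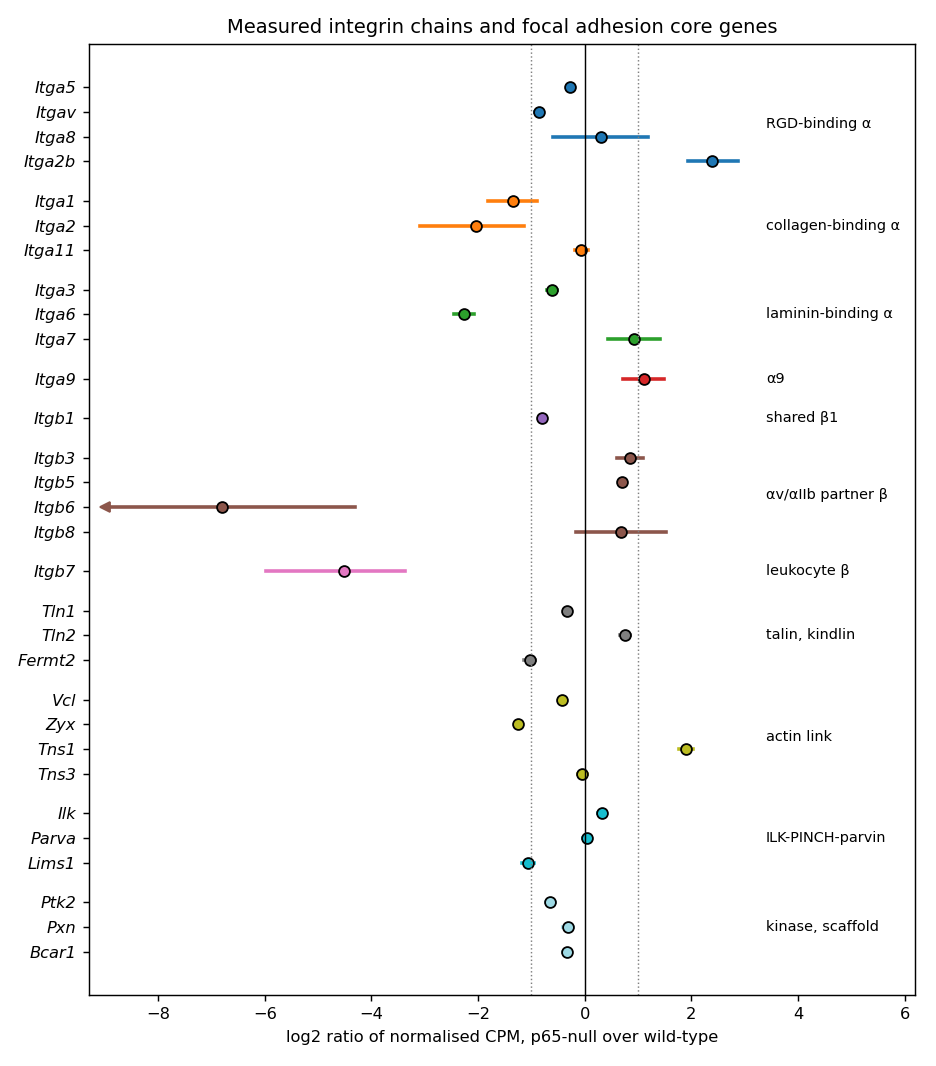
Log2 ratio of normalised CPM, p65-null over wild-type (x axis), for the 30 measured members, grouped by ligand class and by layer of the focal adhesion. Points are ratios, bars are 95% counting intervals (an arrow marks an interval that runs past the axis, to -12.12 for Itgb6), and dotted lines mark 2-fold: Itgb6 at -6.81 and Itgb7 at -4.52 lie far to the left, Itga2b at 2.39 and Tns1 at 1.89 to the right.

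Across all measured genes the log2 ratio followed the GC content of the transcript (Spearman 0.44, genes not being independent replicates). The same coefficient over the 30 measured members was 0.27, as a description, the members sharing both libraries. Each log2 ratio was therefore also computed after a correction for GC content and length, and the corrected value stands beside every member that it moved across 2-fold or across 0. After the correction 5 members were lower by 2-fold or more, against 8.92% of all measured genes, and 4 were higher by 2-fold or more, against 10.9%. The 5 were Itgb6, Itgb7, Itga6, Itga2 and Zyx, and the 4 were Itga2b, Tns1, Itga9 and Itgb8.

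The members that stood farthest apart were Itgb6 and Itgb7 on the lower side and Itga2b and Tns1 on the higher side. The sequences upstream of their starts are printed here from RefSeq (GRCm38.p6, the assembly also called mm10), 5′ to 3′ on the strand of the gene, each from a RefSeq start within 101 bases of the GENCODE start of the transcript that was counted, with bases annotated as untranslated left out. Capitals mark matches to GGGCGG, the GC box bound by Sp1, on either strand. Itgb6, 210 bases at chr2:60722644-60722853 on the minus strand, Itgb7, 241 bases at chr15:102231945-102232185, minus strand, Itga2b, 250 bases at chr11:102469884-102470133, minus strand, and Tns1, 250 bases at chr1:74124549-74124798, minus strand:
Itgb6: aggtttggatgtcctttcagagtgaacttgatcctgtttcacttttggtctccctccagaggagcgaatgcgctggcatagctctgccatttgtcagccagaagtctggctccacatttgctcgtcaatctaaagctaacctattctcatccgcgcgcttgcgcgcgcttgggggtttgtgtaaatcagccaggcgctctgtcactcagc
Itgb7: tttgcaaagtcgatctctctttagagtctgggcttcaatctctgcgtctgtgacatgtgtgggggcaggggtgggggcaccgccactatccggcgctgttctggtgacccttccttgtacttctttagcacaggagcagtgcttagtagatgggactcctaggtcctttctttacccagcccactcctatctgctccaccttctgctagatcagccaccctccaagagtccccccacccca
Itga2b: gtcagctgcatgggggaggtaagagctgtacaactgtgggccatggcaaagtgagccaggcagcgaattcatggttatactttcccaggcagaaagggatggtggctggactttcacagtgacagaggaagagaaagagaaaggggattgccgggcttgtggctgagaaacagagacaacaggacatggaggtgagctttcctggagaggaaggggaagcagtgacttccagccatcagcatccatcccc
Tns1: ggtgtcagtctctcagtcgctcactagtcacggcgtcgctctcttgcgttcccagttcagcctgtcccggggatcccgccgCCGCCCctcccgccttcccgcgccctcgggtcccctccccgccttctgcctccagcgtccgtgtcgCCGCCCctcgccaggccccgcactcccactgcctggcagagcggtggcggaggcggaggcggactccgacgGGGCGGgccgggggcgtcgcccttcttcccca

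The window of Tns1 held 3 GC boxes and 74.4% GC, and the windows of Itgb6, Itgb7 and Itga2b held none, with 52.0%, 56.0% and 54.0% GC over 250 bases. Among 26 members matched to a promoter, 13 (50%) held GGGCGG on either strand, against 32.7% of 32851 RefSeq windows of 250 bases. The member windows ran from 48.0% GC (Itga10) to 76.0% (Fermt2), and the median of all windows was 52.4%. The part of GC content in the GGGCGG shares was not tested. A κB-type motif (GGGA, any 4 bases, then CC, on both strands) was found upstream of Itgb5, Vcl and Lims1, 3 of 26 members (11.5%), against 17.6% of all windows. The AP-1 letters TGANTCA were found in 2 of 26 (7.69%), against 6.75%, and the TEAD letters GGAATG in 3 of 26 (11.5%), against 12.6%. A match describes letters only. Of the 4 printed windows none held the κB-type, AP-1 or TEAD letters.

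The largest share of integrin alpha RNA in both libraries belonged to the fibronectin receptor chain Itga5. Per kilobase of transcript, which allows genes to be compared, Itga5 stood at 67.2 normalised CPM per kb in p65+/+ and 55.5 in p65-/- cells, or 40.9% and 47.9% of all alpha chain RNA. The order below it was Itgav (36.0 and 19.9), Itga3 (25.6 and 16.7), Itga6 (19.0 and 3.98) and Itga11 (12.8 and 12.2). In the p65-null library Itga11 and Itga6 had changed places, Itga11 taking the 4th rank. Each of the other 11 alpha chains lay at or below 0.824 per kb in p65+/+ cells, and the highest of them in p65-/- cells was Itga2b at 3.72. Summed over all 16 alpha chains the level was 164 normalised CPM per kb in p65+/+ and 116 in p65-/- cells, 1.42-fold lower.

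Among the beta chains, Itgb1, the partner of most alpha chains, and Itgb5, a partner of the alpha v chain, together held nearly all RNA. Itgb1 was at 344 normalised CPM per kb in p65+/+ and 196 in p65-/- cells, so that its share of beta chain RNA was 82.3% and 63.7%. Itgb5 was at 65.8 and 107, and its share was 15.7% and 34.9%. These shares are without the correction for GC content and length. Itgb1 was 1.75-fold lower (1.72 to 1.79) in p65-/- cells. After the correction its log2 ratio went from -0.81 to -0.42, and that of Itgb5 from 0.71 to 0.37. The 8 beta chains summed to 418 and 308 normalised CPM per kb, 1.36-fold lower in p65-/- cells. The 3rd rank went to Itgb7 (3.38) in p65+/+ cells and to Itgb3 (3.59) in p65-/- cells.

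**Figure D2:**
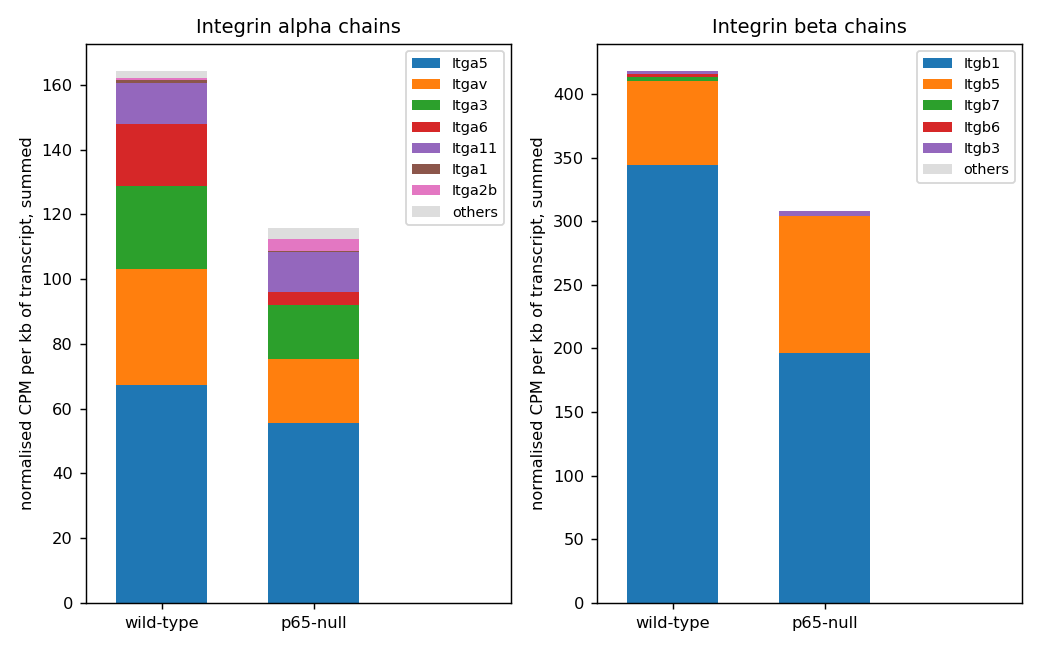
Summed RNA of the integrin alpha chains (left) and beta chains (right) in each library, in normalised CPM per kb of transcript, with 1 colour per chain and the least abundant chains together in grey. Itga5 and Itgb1 form the largest blocks in both libraries, Itga6 shrinks from 19.0 to 3.98, and Itgb5 grows from 65.8 to 107.

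The RGD-binding alpha chains did not move one way. Itga5 (NM_010577, chromosome 15, 103344286 to 103366791) had 294 normalised CPM in p65+/+ and 243 in p65-/- cells, 1.21-fold lower (1.16 to 1.26). Itgav, the alpha v chain, which pairs with several beta chains and can release TGF-beta from its latent form, had 254 and 140, 1.81-fold lower (1.72 to 1.90). Its transcript holds 43.5% GC, and after the correction its log2 ratio went from -0.86 to -0.22. Itga8, a partner of the beta 1 chain that binds nephronectin, was near the expression minimum with 25 and 22 fragments, and its interval spanned no difference (log2 0.30, -0.60 to 1.19).

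Itga2b, the platelet alpha IIb chain of the fibrinogen receptor, went the other way. It had 51.5 fragments in p65+/+ and 193.5 in p65-/- cells, 2.43 against 12.8 normalised CPM, and was 5.26-fold higher (3.85 to 7.30). The gene lies on chromosome 11, 102453297 to 102469883. Its 4 nearest measured neighbours had log2 ratios of 0.60 (Fam171a2), 1.20 (Grn), -0.25 (Gpatch8) and 0.58 (Fzd2). Of the other megakaryocyte and platelet markers looked up, Gp1ba had 10 and 7 fragments and Pf4 9 and 2. The chemokine gene Ppbp, also on that list, had 1127 normalised CPM in p65+/+ and 37.7 in p65-/- cells, opposite to Itga2b. The 7 endothelial markers found summed to 8.28 and 20.3 normalised CPM, with 2 at 0 in each library. Of these Egfl7 had 102.5 and 274 fragments, 3.74-fold higher and so in the direction of Itga2b, and Kdr had 69 and 29. The other 5, among them Pecam1, Cdh5 and Vwf, had at most 3 fragments in either library. The part of these cell types in the Itga2b values was not tested.

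The beta chains that pair with alpha v split: the intervals of Itgb3 and Itgb5 lay above 0, that of Itgb8 spanned 0 and that of Itgb6 lay far below 0. Itgb3, the beta chain of the vitronectin and fibrinogen receptors, had 11.5 normalised CPM in p65+/+ and 20.8 in p65-/- cells, 1.80-fold higher (1.52 to 2.14). Itgb5, the other vitronectin receptor chain, had 216 and 353, 1.63-fold higher (1.57 to 1.70). Itgb8, a TGF-beta activating chain, had 24 and 27.5 fragments, and its interval spanned no difference (log2 0.68, -0.16 to 1.53), though after the correction its log2 ratio was 1.72. The median log2 ratio of the 4 chains was 0.70 and the mean -1.14, since Itgb6 lay far from the rest.

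Itgb6, the epithelial beta 6 chain that activates latent TGF-beta together with alpha v, was the member with the largest difference. It had 157 fragments in p65+/+ and 1 in p65-/- cells, 7.41 against 0.0660 normalised CPM, a log2 ratio of -6.81 (-12.12 to -4.31). The gene (NM_001159564) spans chromosome 2 from 60598292 to 60722603. All 4 nearest measured genes were lower too, at log2 ratios of -0.58 (Ly75), -3.32 (Cd302), -0.60 (Rbms1) and -1.78 (Tank). Among epithelial markers, Epcam had 0 fragments in p65+/+ and 1 in p65-/- cells, Cdh1 0 and 11, and Krt18 0 and 23. Krt19, the single measured marker of that list, had 16.8 and 48.6 normalised CPM, the direction opposite to Itgb6. Over the 7 epithelial and keratinocyte markers found, 4 were at 0 in p65+/+ and 0 in p65-/- cells, and they summed to 16.9 and 51.4. The part of epithelial cells in the Itgb6 values was not tested.

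Genes of the latent TGF-beta complexes that the alpha v pairs act on were detected in both libraries. Ltbp1, which anchors latent TGF-beta to the matrix, had 796 normalised CPM in p65+/+ and 431 in p65-/- cells, 1.85-fold lower (1.79 to 1.90). Tgfb1 had 6.09 and 9.01, and Ltbp3 100.3 and 115.

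Itgb7, the beta chain of the gut-homing receptor of lymphocytes, was the second most different member. It had 192 fragments in p65+/+ and 6 in p65-/- cells, 9.06 against 0.396 normalised CPM, 22.9-fold lower (10.3 to 63.1). Its alpha partner Itga4 had 1 fragment in each library, and its other partner, Itgae, was not analysed here. The leukocyte integrins Itgal (2 and 1 fragments), Itgam (1 and 1), Itgax (7 and 1) and Itgb2 (7 and 2) were near 0 in both libraries. The pan-leukocyte marker Ptprc had 2 fragments in p65+/+ and 0 in p65-/- cells. The 7 leukocyte markers found summed to 4.29 and 6.60 normalised CPM, with 1 at 0 in each library. Most of those sums came from Csf1r (44 and 16 fragments) and Cd68 (29 and 61.5), the measured markers of the list, and the part of such cells in the Itgb7 values was not tested. The Itgb7 gene spans chromosome 15 from 102215994 to 102233405 over all its RefSeq transcripts, and the transcript that was counted starts inside that span, next to the printed window. Its neighbours did not share its ratio: Zfp740 was at -0.06, Csad at 0.79, Rarg at 0.18 and Mfsd5 at -0.39 on the log2 scale.

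**Figure D3:**
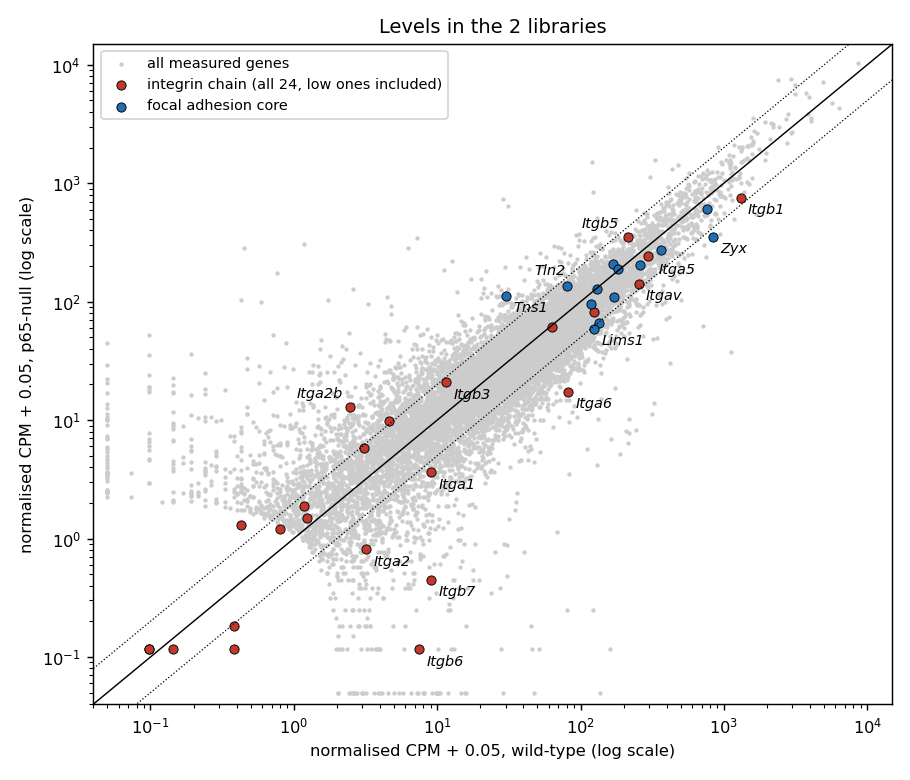
Normalised CPM plus 0.05 in p65+/+ (x axis) and p65-/- cells (y axis), both on log scales, for all 12134 measured genes (grey), the 24 integrin chains (red) and the 13 focal adhesion core genes (blue). The solid line marks equal levels and dotted lines 2-fold: 9 of the 13 core genes lie between the dotted lines, and Zyx, Lims1, Fermt2 and Tns1 outside them. Itgb6, Itgb7 and Itga2 lie below 1 CPM in p65-/- cells.

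The collagen-binding chains were lower or close to equal in p65-/- cells. Itga2, which with beta 1 forms the receptor for fibrillar collagen on platelets and epithelia, had 66.5 and 11.5 fragments, 4.13-fold lower (2.19 to 8.53). Itga1, the chain that prefers type IV collagen, had 9.03 and 3.56 normalised CPM, 2.53-fold lower (1.86 to 3.49), and a log2 ratio of -0.54 after the correction. Itga11, the fibrillar collagen receptor of fibroblasts, was the most abundant of the class and had 63.4 and 60.7 normalised CPM, with an interval that spanned no difference (log2 -0.06, -0.19 to 0.06). Itga10 was under the expression minimum with 16 and 17.5 fragments. The median log2 ratio of the 3 measured chains was -1.34, or -0.54 after the correction, beside -0.03 for all measured genes.

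Itga2 and Itga1 are neighbours on chromosome 13, Itga2 from 114833081 to 114932100 and Itga1 from 114958079 to 115101964. Pelo, a gene within Itga1, had 514.5 and 390 fragments, a log2 ratio of 0.09 (-0.11 to 0.28). It had more fragments than Itga1, and since the use of strand is unstated, reads of the pair may be shared. Beyond the pair, Mocs2 was at -0.40 on one side and Parp8 at -1.14 and Emb at -2.98 on the other. Transcripts of Itga1 and Itga2 were poor in GC, at 42.8% and 43.7%, where the median of all measured genes was 50.5%.

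Genes of the collagens that these receptors bind stood on the other side of 0. The list of 10 collagen genes, all measured, was chosen with earlier results of these data known. Of these, 8 were 2-fold or more higher in p65-/- cells and 0 as much lower, against 12.1% and 13.8% of all measured genes. Their log2 ratios had a median of 1.47, and 6 were higher by 2-fold or more after the correction, against 10.9%. Col6a2 and Col6a1, chains of the microfibrillar collagen VI, had log2 ratios of 2.77 (2.71 to 2.84) and 2.24 (2.20 to 2.28). The basement membrane chains Col4a1 and Col4a2, of the collagen type that Itga1 prefers, were at 1.89 and 1.97. Col6a3, the third collagen VI chain on the list, was at 0.08 (0.04 to 0.12).

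The laminin-binding chains held the largest difference among the abundant integrins. Itga6 (NM_008397, chromosome 2, 71786886 to 71858427), a laminin receptor chain that pairs with beta 1 or beta 4, had 1738 fragments in p65+/+ and 260 in p65-/- cells. Its level was 82.0 against 17.2 normalised CPM, 4.78-fold lower (4.19 to 5.46), and the corrected log2 ratio of -2.15 was close to the uncorrected -2.26. Its measured neighbours had log2 ratios of -0.77 (Dlx2), 0.19 (Dlx1as), 0.56 (Pdk1) and -0.90 (Map3k20). Itga3, which favours laminins with the alpha 5 or alpha 3 chain, had 125 and 81.3 normalised CPM, 1.53-fold lower (1.43 to 1.64). Itga7, the laminin receptor chain of muscle, had 3.02 and 5.71, 1.89-fold higher (1.35 to 2.66). Itgb4, the hemidesmosome partner of Itga6, was under the expression minimum at 8 and 19 fragments.

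Together the 3 laminin-binding chains held 27.6% of alpha chain RNA per kilobase in p65+/+ and 19.1% in p65-/- cells. The RGD-binding chains held 63.3% and 68.5%, and the collagen-binding chains 8.62% and 11.1%. The laminin list, also chosen with earlier results known, held 8 measured genes. Of these, 3 were 2-fold or more higher in p65-/- cells and 0 as much lower, against 12.1% and 13.8% of all measured genes. Their median was 0.16 on the log2 scale. Lama4, the alpha chain of mesenchymal and vascular laminins, had 21.8 and 182 normalised CPM, a log2 ratio of 3.06 (2.92 to 3.21), and Lamb2 and Lamc1 were at 1.55 and 1.12. Lama5, whose product is a ligand of Itga3 and Itga6 receptors, was at 0.35, and Lama2 and Lamb1 at -0.86 and -0.61.

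Itga9, which with beta 1 binds tenascin C, osteopontin and VCAM1, had 4.53 normalised CPM in p65+/+ and 9.74 in p65-/- cells, 2.15-fold higher (1.65 to 2.81). The genes of its ligands lay on both sides. Spp1, which encodes osteopontin, had 713 and 62.5 normalised CPM, a log2 ratio of -3.51 (-3.61 to -3.42), and tenascin C (Tnc) had 694 and 373, a ratio of -0.90. Vcam1 had 139 and 223, a log2 ratio of 0.69, or 1.14 after the correction.

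**Figure D4:**
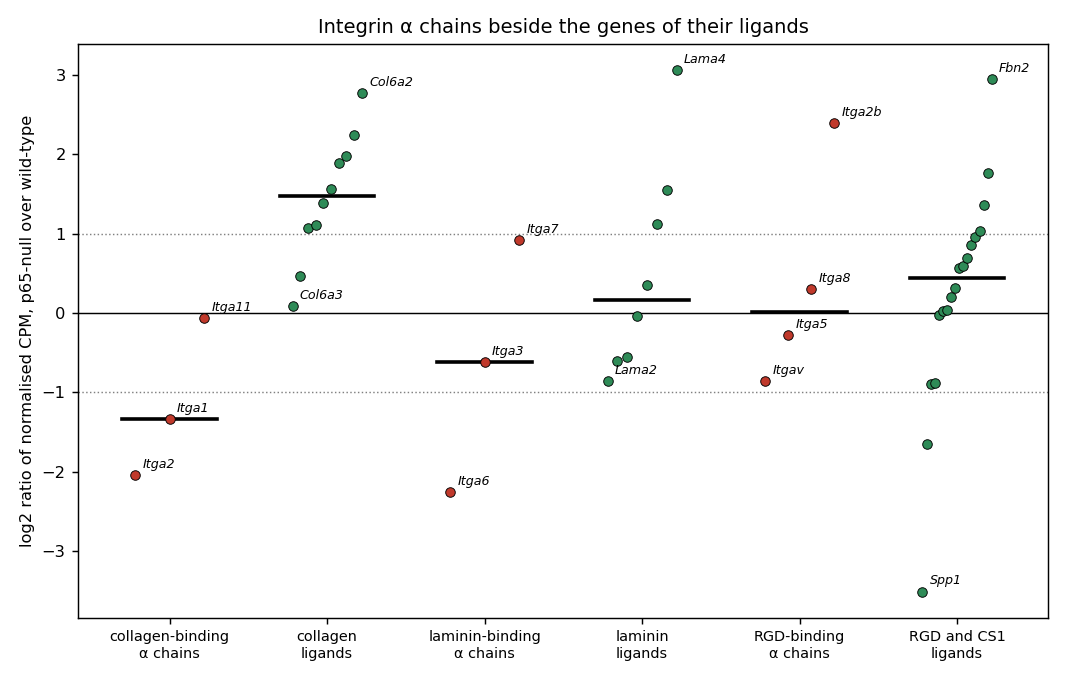
Log2 ratio of normalised CPM, p65-null over wild-type, for the measured alpha chains of each ligand class (red) and for the genes of their ligands (green). Bars are medians and dotted lines 2-fold: the collagen genes have a median of 1.47 beside -1.34 for the 3 collagen-binding chains, and the laminin genes 0.16 beside -0.62 for the 3 laminin-binding chains. Itga11, the most abundant collagen-binding chain, lies at -0.06. After the correction for GC content and length the medians were 1.33 for the collagen genes and -0.54 for the collagen-binding chains.

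The list of RGD and related ligands, likewise chosen with earlier results known, held 18 measured genes. Of these, 4 were higher by 2-fold or more and 2 as much lower, against 12.1% and 13.8% of all measured genes. Their median log2 ratio was 0.44. Fibronectin (Fn1), the main ligand of Itga5, had 2147 and 3227 normalised CPM, a log2 ratio of 0.59 (0.57 to 0.61). Among the microfibril genes Fbn2 was at 2.95 and Fbn1 at 1.03, and Npnt, the ligand of Itga8, was at 1.36. Ccn2, which encodes connective tissue growth factor, was at -1.65 (-1.70 to -1.60), and Ccn1 at 0.03.

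In the focal adhesion core the log2 ratios ran from -1.26 to 1.89. This range was narrower than that of the integrin chains, but at unlike levels. Every core gene had a mean CPM of at least 70.0, where Itgb6 and Itgb7 had 3.81 and 4.81. Of the 13 genes, 1 (7.69%) was higher by 2-fold or more and 3 (23.1%) lower, against 12.1% and 13.8% of all measured genes. None of the 13 was 4-fold apart, against 7.87% of all measured genes. The median log2 ratio was -0.33, or -0.25 after the correction. The interval lay wholly below 0 for 8 core genes (61.5%), against 41.3% of all measured genes. It lay wholly above 0 for 3 (23.1%), against 38.1%, and spanned 0 for Tns3 and Parva. These shares are at unlike depth: every core gene had at least 637 fragments in p65+/+ and 897.5 in p65-/- cells. The medians over all measured genes were 599 and 404. The whole interval lay past 2-fold for Zyx and Tns1 alone, and these stayed past 2-fold after the correction.

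Among the activators, the paralogous talins lay on opposite sides. Tln1, the talin found in all cells, had 768 and 612 normalised CPM, 1.25-fold lower (1.22 to 1.29). Tln2, its paralog of muscle and brain, had 80.1 and 135, 1.68-fold higher (1.58 to 1.80). Per kilobase Tln1 still exceeded Tln2 in both libraries, at 91.5 against 6.60 in p65+/+ cells and 72.9 against 11.1 in p65-/- cells. Fermt2, the kindlin of adherent cells, had 134 and 65.5 normalised CPM, 2.05-fold lower (1.91 to 2.20), and a log2 ratio of -0.75 after the correction. The blood cell kindlin Fermt3 was under the expression minimum.

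Of the genes that link integrins to actin, Zyx and Tns1 stood apart in opposite directions. Zyx, which encodes zyxin, a protein recruited to stress fibres under tension, had 842 and 353 normalised CPM, 2.39-fold lower (2.32 to 2.46), and a corrected log2 ratio of -1.69. Per kilobase it was the most abundant core gene in both libraries, at 323 and 135. The gene lies on chromosome 6, 42349511 to 42360213, and touches Epha1, which had 200 and 49.5 fragments, far fewer than the 17838.5 and 5340 of Zyx. Vcl, which encodes vinculin, had 363 and 272 normalised CPM, 1.34-fold lower (1.29 to 1.39).

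Tns1, a tensin of fibrillar adhesions, had 637 and 1689.5 fragments, 30.1 against 112 normalised CPM, and was 3.71-fold higher (3.39 to 4.07). The gene lies on chromosome 1, 73910232 to 74124548. Of its neighbours, Igfbp5 and Igfbp2 on one side were at log2 ratios of -1.98 and -2.68, and Arpc2 and Aamp on the other at -0.02 and 0.70, none near the 1.89 of Tns1. Tns3, the related tensin, had 131 and 127 normalised CPM, with an interval that spanned no difference (log2 -0.04, -0.13 to 0.04). The tensin genes outside the core, Tns2 and Tns4, had log2 ratios of 1.28 (1.16 to 1.41) and 4.31 (2.66 to 6.64), Tns4 resting on 3 and 42.5 fragments. Tns2 was at 0.99 after the correction.

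The ILK-PINCH-parvin complex, a scaffold that sits on beta tails, did not move as 1 unit. Ilk, the integrin-linked pseudokinase, had 167 and 209 normalised CPM, a log2 ratio of 0.32 (0.25 to 0.39) that was -0.05 after the correction and -0.08 under scaling to ribosomal protein genes. Its ends overlap Rrp8 (2040.5 and 1037 fragments) and Taf10 (1868.5 and 1935), so its value is uncertain. Parva, its actin-binding partner, had 182 and 188, with an interval spanning 0 (log2 0.05, -0.02 to 0.12). Lims1, which encodes PINCH1, had 124 and 59.2, 2.09-fold lower (1.94 to 2.26). Lims1 has the lowest GC content of the core, 40.7%, and its corrected log2 ratio was -0.17. Its neighbours Gcc2, Serinc1, Ranbp2 and Ccdc138 had log2 ratios of -1.29, -0.44, -1.60 and -1.24. Outside the core, the paralogs Lims2 and Parvb had log2 ratios of -2.30 (-3.42 to -1.34) and -1.25.

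The kinase and scaffold genes were all lower by less than 2-fold. Ptk2, which encodes the focal adhesion kinase, had 171 and 109 normalised CPM, 1.57-fold lower (1.48 to 1.66). Pxn (paxillin) had 119 and 96.3, 1.24-fold lower (1.16 to 1.32), and Bcar1 (the docking protein p130Cas) 259 and 205, 1.26-fold lower (1.21 to 1.32). After the correction their log2 ratios were -0.49, -0.73 and -0.74.

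**Figure D5:**
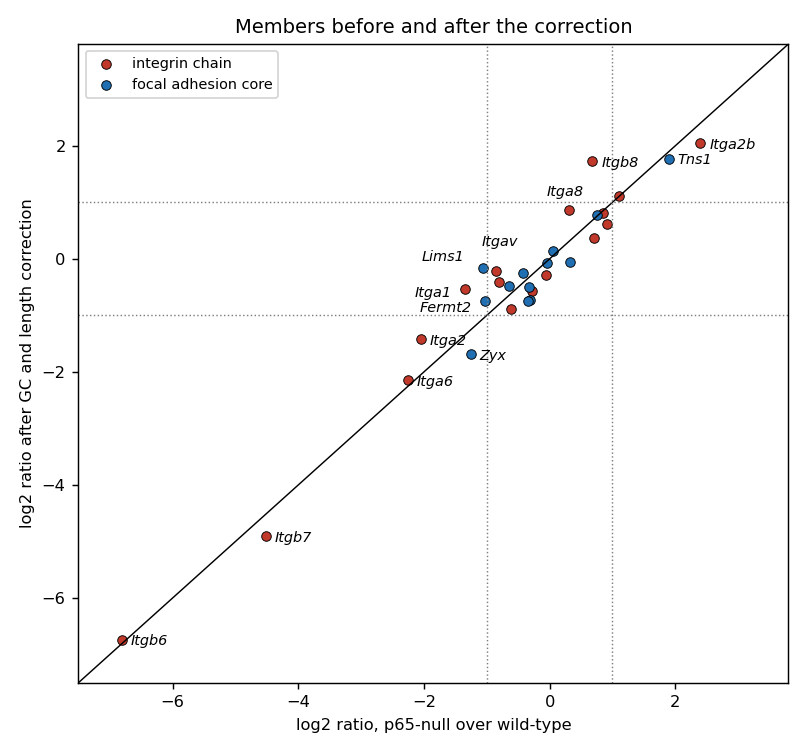
Log2 ratio, p65-null over wild-type, of the 30 measured members before (x axis) and after (y axis) the correction for GC content and length. The solid line marks equal values and dotted lines 2-fold: Itgb6, Itgb7, Itga6 and Itga2b lie near the line, while Lims1 moves from -1.06 to -0.17, Itga1 from -1.34 to -0.54 and Itgb8 from 0.68 to 1.72.

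Among 63 measured genes of the wider adhesome (adaptors, kinases, GTPases and actin binders of the adhesion site), 4 were higher by 2-fold or more and 11 lower by 2-fold or more, shares of all measured genes being 12.1% and 13.8%. The median log2 ratio was 0.01 and the mean -0.06, and after the correction the counts were 5 and 6 and the median -0.23. Arhgef6, which encodes the Rac exchange factor alpha-PIX, had 2 and 131.5 fragments, a log2 ratio of 6.52 (4.64 to 9.58), and Cd81, a tetraspanin partner of integrins, was at 1.75 (1.68 to 1.82). Lpp, a relative of zyxin, had 505 and 103 normalised CPM, a log2 ratio of -2.29 (-2.37 to -2.22) and -1.44 after the correction. Rock1, a kinase that drives contraction, was at -1.77 (-2.01 to -1.55), or -0.76 after the correction. The talin recruiter Apbb1ip (RIAM) was at -1.60, and the GTPase genes Rap1a and Rap1b upstream of it at -1.26 and -1.13, or -0.25 and -0.23 after the correction.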

How the data were processed

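The deposited table holds 1 value per RefSeq transcript (16881) and library. Although named as raw counts, the deposited values are a scaled signal: not all are integers, and the column totals are nearly equal (18117934 and 18117930). Tools listed by the submitters' processing notes, without roles, are STAR 2.4, HOMER, edgeR and bcl2fastq 2.16, and the build is mm10. The assignment of reads, with or without strand, was not given in the sources used here; overlapping genes may share reads. Values below 400 were whole multiples (100% within 0.0055 units) of a step of 0.436 (wild-type) or 0.587 (p65-null), and 2 steps were taken as 1 fragment. That reading rests on even multiples, which made up 72.8% (wild-type) and 75.7% (p65-null) of values of 1 to 20 steps. The counting intervals depend on it. With 1 library per genotype no count test was possible. The recovered fragments serve for ratios, intervals (95%, Clopper-Pearson) and a floor of 3 fragments, which in a ratio replaces only a value of 0.

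Symbols came from a RefSeq gene table (16739 matched) or GENCODE M21 (87), with 10 repeated symbols kept under their transcript. Normalisation was by TMM in edgeR 4.0.16 (R 4.3.3), with factors of 1.02 and 0.981. GC content and length of the GENCODE transcript (99.4% of measured genes) were corrected by loess (span 0.3). The ratio step was tested on simulated data. Every member is accounted for; in other lists up to 4 genes per direction with the interval end farthest past 0, and ligands of the integrins described, are named, except 1 gene that is not reported here. Parvb, Fermt3, Rap1a, Rap1b, Apbb1ip, Xist, Kdm5d, Cdkn2a and neighbouring genes were chosen after their values were seen. The members and lists were chosen with earlier results of these data known. Alternatives were scaling by upper quartile, ribosomal protein genes, total counts or DESeq2 (1.42.0) size factors, a prior count, other expression minimums, thinning, and the mean or whole interval.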

Additional observations from a re-analysis of the deposited data

How the results depend on the processing

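No paired analysis was possible because each genotype had 1 library, and none could be left out. Upper quartile factors moved the median log2 ratio of all measured genes by 0.11 and ribosomal protein scaling by -0.41; the latter put 23.4% of genes past 2-fold on the higher side, against 46.8%. The number of members at least 2-fold lower, 8, was 5 after the GC and length correction, 5 with a minimum of 5 CPM, 5 by whole intervals, 6 with upper quartile factors, 10 with no minimum and 12 with ribosomal scaling. These were not the same genes. The correction and the whole intervals kept Itgb6, Itgb7, Itga6, Itga2 and Zyx. The minimum of 5 CPM left out Itgb6, Itgb7 and Itga2 and kept Itga6, Itga1, Zyx, Lims1 and Fermt2. The integrin median of -0.27 was -0.16 with upper quartile factors, -0.68 with ribosomal scaling, -0.17 with no minimum and -0.74 as a mean. The core median of -0.33 was -0.21, -0.74, -0.25 (GC and length) and -0.19 (mean). The collagen-binding median of -1.34 was -0.54 after the correction and -0.70 with no minimum or 5 CPM. The laminin-binding median of -0.62 was -0.50 (upper quartile), -1.02 (ribosomal), -0.89 (corrected) and -1.44 (5 CPM). The alpha v partner beta chains had a mean of -1.14. The cause was not tested. The scalings shift every log2 ratio by the same amount, -0.41 at the farthest, and a prior count only shrinks the ratios. Neither could change the sign of a member past 2-fold. Under the correction and thinning no such member changed sign. Of 210 member values under these 7 alternatives (scalings, correction, prior count and thinning), 61 left the counting interval. Under ribosomal scaling Itga9 was at 0.70, and Itgav, Itga3, Itgb1 and Ptk2 passed 2-fold lower at -1.26, -1.02, -1.22 and -1.06. Under upper quartile factors Itga7 was at 1.03, Fermt2 at -0.92 and Lims1 at -0.95. Depth limits Itga8, Itgb8 and the 7 chains under the minimum. It also limits the size of the ratios of Itgb6, Itgb7 and Itga2, with 1, 6 and 11.5 fragments in p65-/- cells. With a prior count of 2, Itgb6 was at -5.40.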
